A study of Mus musculus with 14 samples.

Results

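The receptors for the Fc part of antibodies and the kinase that carries their signal were examined in primary microglia of TIMP2 knockout (KO) and wild-type (WT) mouse pups. They were 7 genes of the 49315 in the count table, chosen by gene symbol: the activating receptors Fcgr1, Fcgr3 and Fcgr4, the inhibitory receptor Fcgr2b, the signaling chain Fcer1g, the neonatal receptor Fcgrt and the kinase Syk. Each genotype had 7 libraries of messenger RNA. Every library came from forebrain microglia of a pool of 5 pups of strain C57BL/6, of both sexes and aged postnatal day 6 to 7. The cells were selected with CD11b beads and kept in culture before collection, and no treatment separated the groups. KO pups lacked TIMP2, a secreted inhibitor of metalloproteinases, in all cells, so a loss in the microglia cannot be told apart from a loss around them.

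Receptors for the Fc part of IgG bind antibody-coated particles on macrophages, including microglia, which are the resident macrophages of the brain. Activating receptors pair with the Fcer1g chain, whose tail holds an activation motif (ITAM) that recruits the kinase Syk once Src-family kinases have phosphorylated it, and uptake and release of mediators follow. Fcgr2b instead carries an inhibitory motif (ITIM) that recruits phosphatases, so the balance of activating and inhibitory receptors sets the threshold of a cell for immune complexes. The neonatal receptor Fcgrt binds IgG inside acidic endosomes and returns it to the surface, with beta-2 microglobulin, the product of B2m, as its partner.

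The 2 opposing signals are written in short coding stretches, shown here because they define which members activate and which inhibit. The stretch of Fcgr2b covers coding bases 949 to 966 of its principal transcript (codons 317 to 322) and that of Fcer1g coding bases 193 to 237 (codons 65 to 79). Capitals mark the tyrosine codons of each motif, and the sequences are from the GENCODE annotation of GRCm38, 5′ to 3′.
Fcgr2b ITIM: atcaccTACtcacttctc
Fcer1g ITAM: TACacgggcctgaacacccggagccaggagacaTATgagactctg
The reading frames of the 3 activating receptors held no ITAM. Matches to the ITIM pattern, which is short and loose, also occurred in the frames of Fcgr1 (3 matches), Fcgr4, Fcer1g and Fcgrt (1 each), and their place relative to the membrane was not examined. Syk, a kinase with a pair of SH2 domains, held neither motif.

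Fcgr3 and Fcgr2b have opposite roles and nearly the same outer part, which matters for telling their reads apart. Their aligned coding bases were 86.7% identical, against 64.1% to 68.6% for the other 5 pairs of the 4 IgG receptors. Among the 60-base stretches of the alignment that held no gap, the one that differed most, with 7 differing bases, is shown with those bases in capitals. Stretches with a gap were left out, so the genes can differ more elsewhere. The printed stretch spans coding bases 124 to 183 of Fcgr3 and 139 to 198 of Fcgr2b.
Fcgr3: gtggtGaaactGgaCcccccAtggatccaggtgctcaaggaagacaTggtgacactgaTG
Fcgr2b: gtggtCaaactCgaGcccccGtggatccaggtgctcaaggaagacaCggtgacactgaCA
The longest identical run was 129 bases. Of the 50-base windows of Fcgr3's principal transcript, 12.8% also occurred in a transcript of Fcgr2b, while no window of 150 bases, the length of 1 sequenced read, was shared. No window of 50 bases of Fcgr1, Fcgr4, Fcer1g, Fcgrt or Syk occurred in another gene. Fcgr2b also overlapped the antisense gene Gm38204 over 155 exon bases. Gm38204 held at most 9 counts in any library, and the strand setting of the counting was not given in the sources used here.

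In the GRCm38 build, 4 of the 7 genes lie close together on chromosome 1. They are Fcgr2b (ENSMUSG00000026656, chr1:170958617-170976547, minus strand), Fcgr4 (ENSMUSG00000059089, chr1:171018920-171029761, plus strand), Fcgr3 (ENSMUSG00000059498, chr1:171051174-171064935, minus strand) and Fcer1g (ENSMUSG00000058715, chr1:171229572-171234365, minus strand). Fcgr1 (ENSMUSG00000015947, chr3:96282909-96293969, minus strand), Fcgrt (ENSMUSG00000003420, chr7:45092990-45103851, minus strand) and Syk (ENSMUSG00000021457, chr13:52583173-52648792, plus strand) lie elsewhere. All 7 are annotated as protein-coding, and the counts cover their exons.

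Libraries held between 38875344 and 48070236 counts, and no member had fewer than 1771 counts in any library. Timp2 was at 463 ± 36.8 CPM (counts scaled to the library size) in WT and 122 ± 3.14 CPM in KO (mean ± SD, n = 7 each), or 26.4% of WT, with no overlap between genotypes. Summed microglia markers (12 genes, each at 1 CPM or more in at least 1 library) ranged from 8387 to 10359 CPM in WT and from 8875 to 10853 CPM in KO. Astrocyte markers (10 genes) summed to 34.2 to 260 CPM in WT and 30.1 to 137 CPM in KO, and border macrophage markers (7 genes) to 446 to 875 and 498 to 816 CPM. Most of the border macrophage sum was Mrc1 (mean 438 CPM over all libraries) and Ms4a7 (138 CPM). Lyve1 and Cd163, of the same list, stayed under 1 CPM in every library. Of the other cells known for Fc receptors, all 5 T and NK cell markers, 4 of 5 B cell markers, 4 of 5 mast cell markers, 3 of 4 dendritic cell markers, 3 of 6 neutrophil markers and 2 of 3 monocyte markers stayed under 1 CPM in every library. All values are from bulk RNA, in which fewer cells of a type and less RNA per cell cannot be told apart.

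All 7 genes were expressed, and per kb of exon the signaling chain and Fcgr3 stood far above the rest. Levels of different genes are given as CPM per kb of merged exons. Fcer1g had the highest mean over the 14 libraries, at 582 ± 27.9 CPM per kb, and ranked 45 of 15666 tested genes in WT. Fcgr3 followed at 356 ± 19.6 CPM per kb, at rank 90, and Fcgr1, the high-affinity IgG receptor, at 126 ± 20.3 CPM per kb, at rank 326. These 3 levels were separated: no library's value for the lower gene of a neighbouring pair reached any value of the higher one. Fcgr4, an activating receptor for IgG2 subclasses, was at 46.0 ± 10.5 CPM per kb, at rank 956, and it too stayed below every Fcgr1 value.

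The remaining 3 genes lay lower and close to each other. Fcgrt was at 32.2 ± 5.15 CPM per kb, Fcgr2b at 25.1 ± 3.80 CPM per kb and Syk at 19.3 ± 1.59 CPM per kb (mean ± SD, n = 14). Their ranks in WT were 1470, 1926 and 2476 of 15666. From Fcgr4 down, the ranges of neighbours overlapped across libraries, although within each library the order was held in 14 of 14. The position of Fcgr2b depended on the length used. Its merged exons cover 5790 bases, while its longest transcript has 3544 and its principal transcript 1578. With the longest transcript its level was 40.9 CPM per kb, and Fcgr4 exceeded it in only 9 of 14 libraries. With the principal transcript it was at 91.9 CPM per kb, above Fcgr4 in 14 of 14 libraries.

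**Figure D1:**
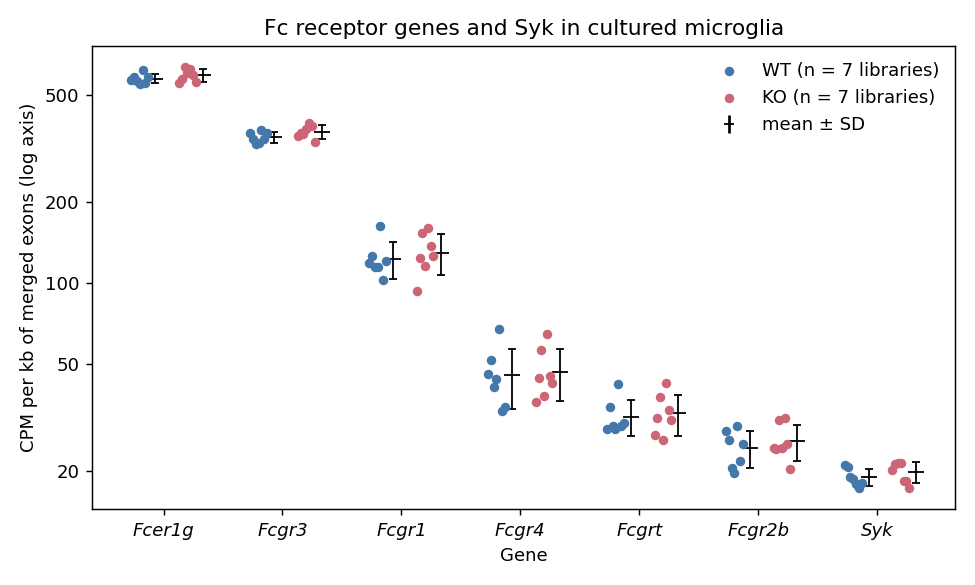
Level of each gene in CPM per kb of merged exons (log axis) in the 7 WT and 7 KO libraries, 1 point per library, with the mean and SD beside the points. Fcer1g and Fcgr3 lie above all other genes, and for every gene the WT and KO points overlap.

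Activating receptor RNA exceeded inhibitory receptor RNA in every library, and the ratios of the genotypes overlapped. The per-kb levels of Fcgr1, Fcgr3 and Fcgr4 were summed and divided by that of Fcgr2b within each library. In WT this ratio was lowest at 18.6, had a median of 20.5 and was highest at 25.1. In KO it was lowest at 18.4, had a median of 21.6 and was highest at 24.7. The genotypes overlapped almost fully, with a mean of 21.4 ± 2.23 in WT and 21.2 ± 2.12 in KO (SD, n = 7 each). On the log2 scale the mean was 4.42 in WT and 4.40 in KO. The difference of -0.02, KO minus WT, was smaller than the SD among libraries of 0.15 in WT and 0.14 in KO.

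Most of the activating sum was Fcgr3. Of the per-kb RNA of the 4 IgG receptors, Fcgr3 made up 64.6% ± 3.07 in WT and 64.5% ± 3.51 in KO (SD, n = 7). Fcgr1 made up 22.6% ± 1.66 and 22.8% ± 2.41, Fcgr4 8.32% ± 1.49 and 8.17% ± 1.13, and Fcgr2b 4.49% ± 0.431 and 4.54% ± 0.427. Taken singly over Fcgr2b, the mean log2 ratio was 3.85 in WT and 3.83 in KO for Fcgr3, 2.33 in both for Fcgr1, and 0.87 and 0.84 for Fcgr4. The size of the ratio followed the length used for Fcgr2b, while the difference between genotypes stayed small. With the longest transcript the mean log2 ratio of the sum was 3.97 in WT and 3.95 in KO, and with the principal transcript 2.80 and 2.78. With the principal transcript Fcgr4 alone lay below Fcgr2b, at a mean ratio of 0.508 ± 0.0978 in WT and 0.492 ± 0.0626 in KO.

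**Figure D2:**
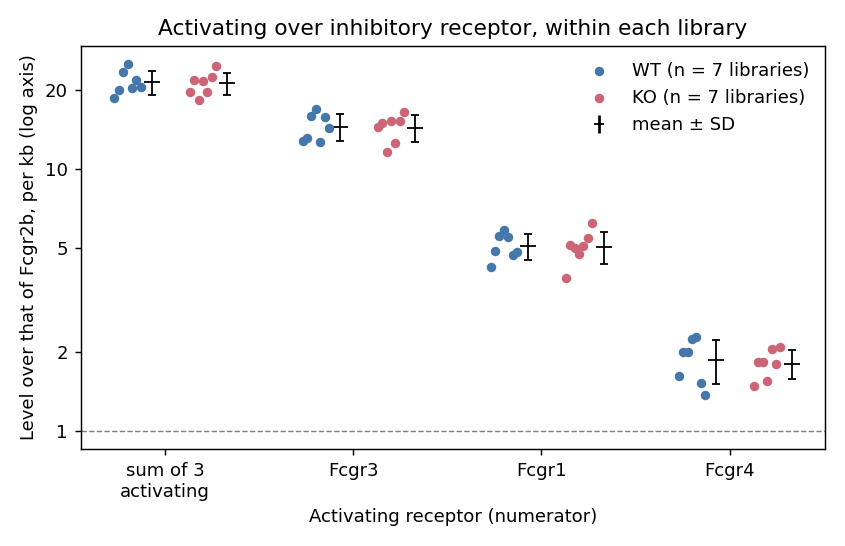
Ratio of activating receptor level to Fcgr2b level within each library, both in CPM per kb of merged exons (log axis), for the sum of 3 receptors and for each alone, with the mean and SD beside the 7 WT and 7 KO points. WT and KO points cover the same range in all 4 ratios, and the dashed line marks equal levels.

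The ratio of signaling chain RNA to receptor RNA, taken per kb of merged exons only, was similar in both genotypes. Fcer1g over the summed per-kb level of the 3 activating receptors had a ratio of 1.11 ± 0.0486 in WT (lowest 1.03, median 1.12, highest 1.17). In KO it was 1.10 ± 0.0517 (lowest 1.01, median 1.12, highest 1.15), so the ranges overlapped.

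The comparison of KO with WT asked whether loss of TIMP2 moved these genes, and no member passed the test. The activating receptors are described first, in CPM for each gene. Fcgr1 was lowest at 264, had a median of 307 and was highest at 420 CPM in WT, and 242, 324 and 412 CPM in KO. Fcgr3 was at 568, 595 and 644 CPM in WT, and 577, 624 and 683 CPM in KO. Fcgr4 was at 41.8, 55.2 and 84.2 CPM in WT, and 45.2, 55.4 and 80.8 CPM in KO. All 3 overlapped between genotypes. Of these 3, Fcgr3 came nearest to a shift, with 3 of 7 KO libraries above the highest WT library. The log2 fold change, KO over WT, was 0.08 (95% interval -0.16 to 0.32) for Fcgr1, 0.06 (-0.02 to 0.15) for Fcgr3 and 0.04 (-0.30 to 0.38) for Fcgr4.

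The inhibitory receptor and the other partners were not separated by genotype either. Fcgr2b was lowest at 113, had a median of 146 and was highest at 170 CPM in WT, and 117, 141 and 182 CPM in KO. Fcer1g was at 479, 496 and 539 CPM in WT, and 482, 518 and 554 CPM in KO. The KO and WT ranges of both overlapped, and so did those of Fcgrt and Syk. Fcgrt was at 59.9, 61.7 and 88.1 CPM in WT, and 54.8, 66.1 and 88.8 CPM in KO. Syk was at 161, 175 and 196 CPM in WT, and 161, 189 and 201 CPM in KO. For Syk too, 3 KO libraries lay above the highest WT library, and 1 lay below the lowest. For Fcgr2b and Fcer1g, 2 KO libraries each lay above it. The log2 fold changes were 0.08 (95% interval -0.15 to 0.31) for Fcgr2b, 0.04 (-0.03 to 0.12) for Fcer1g, 0.04 (-0.20 to 0.28) for Fcgrt and 0.06 (-0.06 to 0.19) for Syk.

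Across 15700 genes the quasi-likelihood test of edgeR, adjusted by Benjamini-Hochberg, called 0 of the 7 members at an adjusted p under 0.05, where 0.0191% of all genes were called. At an unadjusted p under 0.05 the count was also 0 of 7, beside 3.37% of all genes and 1.75% of them higher in KO. DESeq2 called 0 of 7, beside 0.0318% of its genes. The CPM ranges of the genotypes overlapped for 7 of 7, and 0.0828% of all genes had ranges that did not overlap. The adjusted p of the 7 lay between 0.943 and 0.982 in the edgeR fit, and the two-sided exact permutation p of single genes between 0.139 for Fcgr3 and 0.779 for Fcgr4. The upper bounds of the 95% intervals were 0.15 on the log2 scale for Fcgr3 and 0.12 for Fcer1g, but 0.38 for Fcgr4. All 7 estimates were above 0, beside 50.8% of all genes, but the genes share libraries and vary together across them, and Fcgr4 and Fcgrt fell below 0 when single libraries were left out. Summed astrocyte markers had a mean of 117 CPM in WT and 71.9 CPM in KO, and their part in the direction of these estimates was not tested.

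**Figure D3:**
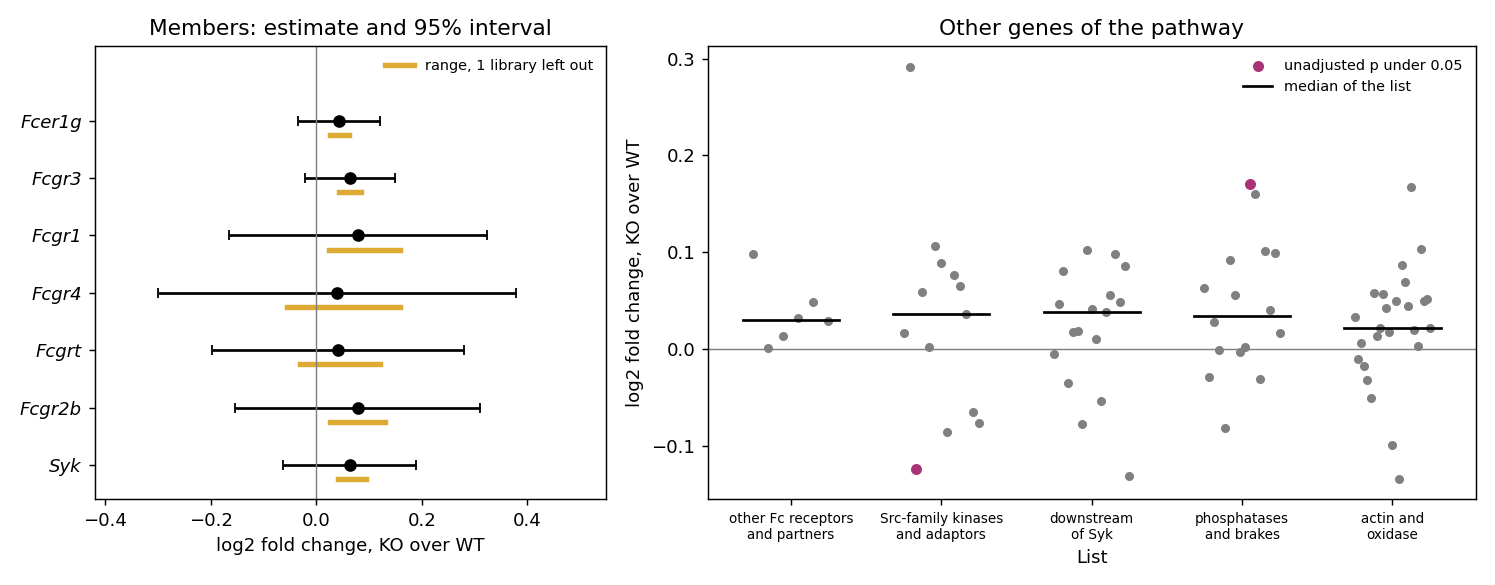
Left, log2 fold change of each of the 7 genes, KO over WT, with its 95% interval and, in yellow, the range when each of 14 libraries was left out in turn; every interval includes 0. Right, log2 fold changes of the 77 tested genes of 5 pathway lists, with list medians, and in purple the 2 genes with an unadjusted edgeR p under 0.05, Fyn and Pag1.

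The wider pathway was read from 5 lists of 85 genes, of which 77 were tested. No gene of any list was called by edgeR. Of the 77, 57 (74.0%) were estimated higher and 20 lower in KO, beside 50.8% of all genes higher. The median log2 fold change was 0.03, against 0.00163 for all tested genes, and upper-quartile scaling moved the median gene by -0.0135. The genes share libraries, so their estimates are not independent. Mean marker sums of astrocytes (117 CPM in WT, 71.9 in KO), oligodendrocyte lineage (103, 91.1) and neurons (41.9, 36.2) were lower in KO. Those of microglia, border macrophages and endothelium were higher. The part of these in the direction of the estimates was not tested. An unadjusted edgeR p under 0.05 was reached by 2 of 77 genes, beside 3.37% of all genes. That count was 3 of 84 with DESeq2. Of 77 genes it was 6 with the replicate block, 7 with upper-quartile scaling and 11 without KO replicate 1. The share of all genes under these settings is not given here, so the counts cannot be set against it. Among other Fc receptors and partners, 6 of 14 genes were tested. B2m, the partner of Fcgrt, was at 2543 ± 201 CPM in WT and 2720 ± 321 CPM in KO, a log2 difference of 0.10 within the spread of libraries. Tyrobp, an adaptor with an ITAM of its own, was at 733 ± 23.4 CPM in WT and 748 ± 41.8 CPM in KO. Fcrl5, Fcrla, Fcer1a, Ms4a2, Fcer2a, Fcmr, Fcamr and Pigr, mostly receptors of lymphocytes, mast cells or epithelia, had too few counts to test.

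Of the 13 Src-family kinases and proximal adaptors, which act ahead of Syk, 9 were estimated higher and 4 lower (median 0.04, log2). Fyn had the smallest p of all 77 genes. It was at 81.1 ± 2.96 CPM in WT (75.4 to 83.8) and 74.4 ± 3.62 CPM in KO (71.0 to 80.9), a log2 fold change of -0.12 with SE 0.0332. Its exact permutation p was 0.00524, unadjusted, and its adjusted p in the edgeR fit was 0.943, so it was not called. Lyn, a Src-family kinase of macrophages, was at 304 ± 17.5 CPM in WT and 318 ± 25.4 CPM in KO. Lat2, an adaptor, had a log2 fold change of -0.09.

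Of 17 effectors downstream of Syk, 12 were estimated higher and 5 lower, with a median of 0.04 (log2). Plcg2, the phospholipase that Syk activates in myeloid cells, was at 189 ± 3.62 CPM in WT and 194 ± 3.95 CPM in KO. Its exact permutation p was 0.0309, unadjusted, while its edgeR p was 0.0842 unadjusted and 0.943 adjusted. The log2 fold change was 0.04 for Plcg2, 0.05 for the kinase Btk, 0.05 for the exchange factor Vav1 and -0.13 for its relative Vav3. None of these was called.

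Of 16 inhibitory phosphatases and brakes, 11 were estimated higher and 5 lower, with a median of 0.03 (log2). Inpp5d, which encodes the lipid phosphatase SHIP1 that the Fcgr2b motif recruits, was at 406 ± 27.5 CPM in WT and 422 ± 33.4 CPM in KO. Ptpn6, encoding the phosphatase SHP-1, was at 327 ± 26.6 and 350 ± 33.7 CPM. Pag1, a membrane adaptor that holds the Src-family inhibitor Csk, was at 90.7 ± 7.76 CPM in WT and 102 ± 8.15 CPM in KO, a log2 fold change of 0.17 with SE 0.0591. Its exact permutation p was 0.0198, unadjusted, and its edgeR adjusted p 0.943. Ptpn11, encoding SHP-2, differed by -0.03 on the log2 scale. Its exact permutation p was 0.00816, unadjusted, while its edgeR p was 0.104 unadjusted and 0.943 adjusted. The permutation test was run only on members and named genes, so no share of all genes stands beside it. Of 25 actin and oxidase genes of phagocytosis, 19 were estimated higher and 6 lower (median 0.02), with the actin-severing gene Cfl1 at -0.05 and the oxidase subunit gene Ncf4 at 0.17. The unadjusted exact permutation p was 0.0396 for Cfl1 and 0.195 for Ncf4, beside unadjusted edgeR p of 0.0870 and 0.119.

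For every member, the SD among libraries of 1 genotype exceeded the log2 fold change between genotypes. The SD of log2 CPM within genotype was 0.32 for Fcgr4, 0.24 for Fcgr1, 0.23 for Fcgrt and 0.22 for Fcgr2b. At least 92.4% of the 8499 genes with a mean of 10 CPM or more varied less than each of these 4. Syk varied by 0.12, while Fcgr3, at 0.07, and Fcer1g, at 0.07, were below the median gene's 0.08. Thus the 2 most abundant members were also the steadiest.

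The libraries numbered 5 held the highest value of their genotype for Fcgr1, Fcgr3, Fcgr4, Fcgr2b and Fcgrt in both WT and KO. Fcgr4 was at 84.2 CPM in WT 5, which was 1.61 times the mean of the other WT libraries, and at 80.8 CPM in KO 5, or 1.47 times. Fcgr1 was 1.40 times the others in WT 5 and 1.28 times in KO 5, and Fcgr3 only 1.08 and 1.10 times. Syk went the other way, ranking 6 of 7 in both. The same libraries held the lowest astrocyte marker sums of their genotype, 34.2 and 30.1 CPM, and border macrophage marker sums of 875 and 771 CPM, the highest in WT and second in KO. The part of these in the receptor levels was not tested, and no source used here names a batch for each library. Without both libraries numbered 5, the log2 fold change was 0.10 for Fcgr1, 0.06 for Fcgr3, 0.06 for Fcgr4, 0.07 for Fcgr2b, 0.05 for Fcer1g, 0.05 for Fcgrt and 0.07 for Syk, and 0 of 7 were called.

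**Figure D4:**
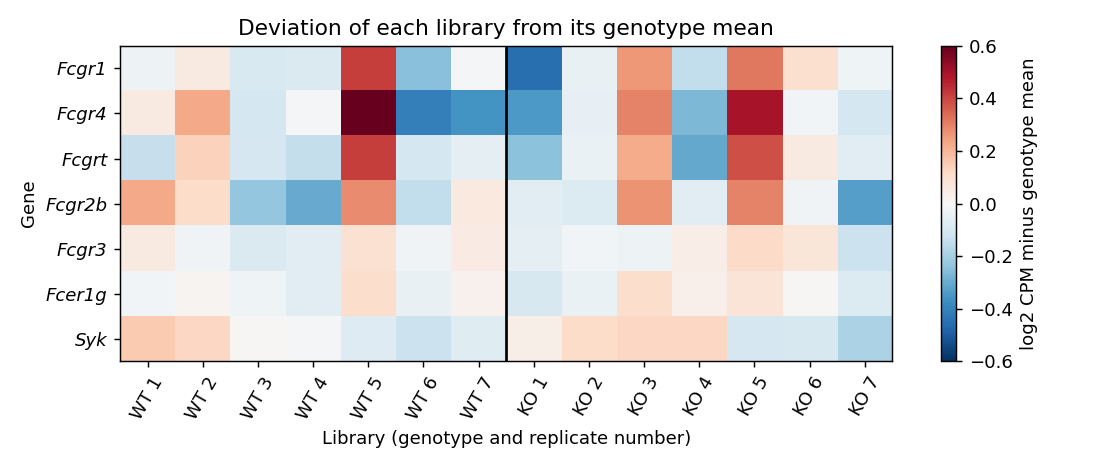
Log2 CPM of each gene (rows) in each of the 14 libraries (columns, WT left of the line and KO right) minus the mean of its genotype, red for higher and blue for lower. WT 5 and KO 5 are red for the upper 4 genes, and Syk, in the last row, is pale blue in both.

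Covariation of the members across the 14 libraries is given as a description, with no p. The log2 CPM of Fcgr1 had a Pearson r of 0.90 with Fcgrt (Spearman rho 0.90), 0.89 with Fcgr4 (rho 0.84) and 0.84 with Fcer1g (rho 0.79). Fcgr4 and Fcgrt had r = 0.89 (rho 0.75). These 4 values were 0.81, 0.77, 0.75 and 0.74 without both libraries numbered 5. Among members, Fcgr2b was closest to Fcer1g and Fcgr3, with r = 0.82 for Fcer1g (rho 0.82) and 0.76 for Fcgr3 (rho 0.72). Syk had r between -0.20 and 0.32 with the other 6 genes. That rested largely on the libraries numbered 5, without which r was 0.64 with Fcgr2b, 0.49 with Fcer1g, 0.49 with Fcgr4, 0.38 with Fcgr3, 0.21 with Fcgr1 and 0.09 with Fcgrt. All values come from the same 14 libraries and share their depth, scaling and cell makeup.

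The genes whose pattern was most like each member were taken from 8492 other genes with a mean of 10 CPM or more. For Fcgr1 they were Irf7, a transcription factor of the interferon response, with r = 0.99 (rho 0.98), and Sp100, a nuclear body gene, with r = 0.98 (rho 0.99). Irf7 ranged from 205 CPM in KO 1, where Fcgr1 was also lowest, to 545 CPM in WT 5, where Fcgr1 was highest. Without both libraries numbered 5 these r were 0.98 and 0.97. For Fcgr4 they were Sass6 (r = 0.96, rho 0.97) and Mndal (r = 0.94, rho 0.91), the latter of an interferon-inducible family. For Fcgrt they were Tmem8 (r = 0.95, rho 0.96) and Ndst2 (r = 0.95, rho 0.96).

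The other members had different neighbours. Fcer1g was closest to H2-M3 (r = 0.97, rho 0.96) and H2-T24 (r = 0.97, rho 0.96), non-classical MHC class I genes with many relatives of similar sequence. Fcgr3 was closest to Ticam1, a Toll-like receptor adaptor (r = 0.92, rho 0.93), and Cmtm6 (r = 0.89, rho 0.85). Fcgr2b was closest to Rmnd1 (r = 0.92, rho 0.87) and Mrc1, the mannose receptor (r = 0.91, rho 0.95). Syk was closest to P2rx4, an ATP-gated channel (r = 0.92, rho 0.90), and Pcyt1a (r = 0.92, rho 0.83). None of these 14 genes was called between genotypes.

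Marker sums moved with some members across the 14 libraries. The astrocyte sum had r = -0.91 with Fcgr3 (rho -0.91), -0.89 with Fcgr2b (rho -0.89), -0.85 with Fcer1g (rho -0.90) and -0.65 with Fcgr1 (rho -0.69). The border macrophage sum, which is mostly Mrc1 and Ms4a7, had r = 0.93 with Fcgr2b (rho 0.95), 0.83 with Fcgr4 (rho 0.76), 0.81 with Fcer1g (rho 0.84), 0.79 with Fcgr1 (rho 0.76) and 0.79 with Fcgrt (rho 0.61). The oligodendrocyte lineage sum had r = -0.87 with Fcgr3 (rho -0.87), -0.86 with Fcer1g (rho -0.89) and -0.85 with Fcgr2b (rho -0.83), close to the astrocyte values. When the 2 libraries farthest from the median were left out, r was -0.88 for the astrocyte sum with Fcgr3, -0.82 with Fcgr2b, -0.79 with Fcer1g and -0.60 with Fcgr1. For the border macrophage sum it was then 0.92 with Fcgr2b, 0.72 with Fcgr4, 0.69 with Fcer1g, 0.64 with Fcgr1 and 0.63 with Fcgrt. The microglia sum had r = -0.55 with Syk (rho -0.54), or -0.93 within WT and -0.55 within KO. Its r was 0.51 with Fcgr1, 0.49 with Fcgrt, 0.43 with Fcer1g, 0.35 with Fcgr3, 0.17 with Fcgr4 and 0.07 with Fcgr2b. With Fcgr1 it was 0.095 within WT and 0.84 within KO, and with Fcgrt 0.27 and 0.71. Within each genotype the values were -0.95 in WT and -0.88 in KO for astrocyte markers with Fcgr3, and 0.94 in both for border macrophage markers with Fcgr2b. The part of cell makeup in the levels of these members was not tested.

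**Figure D5:**
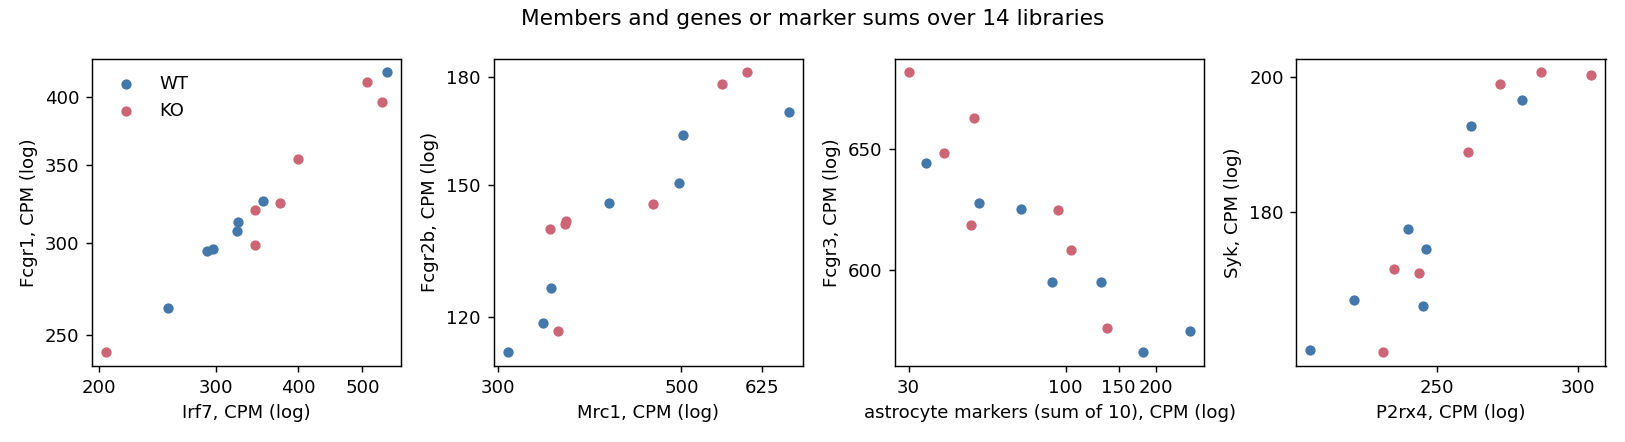
CPM of 4 members (vertical, log axes) against CPM of a gene or marker sum (horizontal, log axes) in 7 WT and 7 KO libraries, 1 point per library. Fcgr1 rises with Irf7, Fcgr2b with Mrc1 and Syk with P2rx4, Fcgr3 is lower where astrocyte markers are higher, and WT and KO points lie along the same lines.

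The promoters of Fcgr1 and Fcgr4, the members with the largest SD within genotype, are printed from RefSeq (GRCm38.p6). They run from 250 bases before to 50 bases after the start. They were searched on both strands for the interferon-gamma element GAS (TTCNNNGAA), the interferon-stimulated element ISRE core (GAAA, any 2 bases, GAAA) and the core of the macrophage factor PU.1 (GAGGAA). Capitals mark the matches, which do not overlap.
Fcgr1, chr3:96293920-96294219, minus strand: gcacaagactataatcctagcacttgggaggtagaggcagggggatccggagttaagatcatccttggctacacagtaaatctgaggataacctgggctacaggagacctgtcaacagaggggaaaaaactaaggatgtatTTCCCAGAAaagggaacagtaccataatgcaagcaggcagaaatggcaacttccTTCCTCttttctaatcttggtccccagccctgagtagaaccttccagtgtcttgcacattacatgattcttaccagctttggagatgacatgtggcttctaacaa
Fcgr4, chr1:171018676-171018975, plus strand: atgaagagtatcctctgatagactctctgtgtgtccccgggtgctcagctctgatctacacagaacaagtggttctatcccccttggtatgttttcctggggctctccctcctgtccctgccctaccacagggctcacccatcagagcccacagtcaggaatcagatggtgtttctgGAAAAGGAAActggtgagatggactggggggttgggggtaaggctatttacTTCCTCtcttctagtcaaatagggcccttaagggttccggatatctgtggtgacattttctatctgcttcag
Fcgr1 held 1 GAS match, 109 bases before the start, and Fcgr4 held 1 ISRE core match, 73 bases before it. Each held 1 PU.1 core, 55 and 22 bases before the start. Of 32851 promoters of this length, 8.30% held GAS, 3.44% the ISRE core and 28.3% the PU.1 core, so the last is common. No window of the other 5 members held GAS or the ISRE core, and the PU.1 core was found in both windows of Fcgr3 and in 1 of the 2 windows of Syk. Fcgrt, whose window held no match to any of these, varied nearly as much as Fcgr1. It had r = 0.90 with Fcgr1 and 0.89 with Fcgr4, beside 0.89 between Fcgr1 and Fcgr4. A match describes letters in the window and not a site in use.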

How the data were processed

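The authors trimmed reads with Trimmomatic 0.36, mapped them to GRCm38 with STAR 2.5.2b and counted them with featureCounts of Subread 1.5.2, per the submitters' processing notes. Raw counts, 1 row per Ensembl gene, were deposited. Annotation release, strand and multi-mapping settings are not given in the sources used here. Of 49315 genes, 49056 were matched to GENCODE M21 for symbols and lengths.

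Counts were fitted with edgeR 4.0.16 (R 4.3.3; filterByExpr with a minimum count of 10, TMM, quasi-likelihood test on genotype, two-sided, Benjamini-Hochberg over 15700 genes). The authors modelled batch, but no source used here names each library's batch. CPM used TMM library sizes, and log2 CPM a prior count of 1. Exact permutation tests ran over all 3432 splits of 14 libraries, with a smallest p of 0.000583. Each library is a separate pool of pups. DESeq2 1.42.0, other scalings, no filter, the replicate block and leaving out libraries were alternatives. The principal transcript length (the shortest APPRIS principal transcript) and the fit without both libraries numbered 5 were chosen after seeing the data.

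The members, lists and tests were chosen with earlier results of these data known. Named genes were the members, Timp2, the 2 smallest p of each list, fixed direct partners (1 is not reported here) and the 2 genes most correlated with each member. The fit was tested on simulated data. Its first run missed the recovery first asked for, mostly among genes of low counts. The criterion was then lowered, later restricted to genes of at least 10 CPM, and 4 further simulations were added, so it was set after that result was seen. The lowest member is above 10 CPM. However, the criterion counted genes changed by 1 on the log2 scale. Changes as small as the members' estimates, 0.04 to 0.08, were not simulated, so their recovery is unknown.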

Additional observations from a re-analysis of the deposited data

Results flagged for a closer look

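Among the 16 groups of 7 libraries examined (CPM of each member and the log2 activating over inhibitory ratio, in each genotype), 1 held a library far from the others: Fcgr1 in WT, where the library numbered 5 was at 420 CPM and the next highest at 326 CPM. Its gap to the next library was 0.601 of the whole range of the group. Chance flags about 1 in 20 such groups. The same library was also the highest WT library for Irf7, at 545 CPM. Without it, the log2 fold change of Fcgr1, KO over WT, was 0.16 (SE 0.101), with an adjusted p of 0.684 by edgeR.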

How the results depend on the processing

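No member was called under any of the 21 alternatives, and of 147 alternative values of the members' log2 fold changes, 142 kept their direction. The 5 that turned below 0 all left out 1 library. Fcgr4 ranged from -0.05 to 0.16 over the 14 fits that left out 1 library and was -0.0243 without WT replicate 6, -0.0168 without WT replicate 7, -0.0112 without KO replicate 3 and -0.0549 without KO replicate 5. Fcgrt ranged from -0.03 to 0.12 and was -0.0310 without KO replicate 5. The smallest unadjusted p of a member, 0.0367 for Fcgr3, came without KO replicate 7, and the smallest adjusted p over all settings was 0.684. With the replicate block, 0 members were called, with log2 fold changes between 0.04 and 0.08 (Fcgr1 0.07, Fcgr4 0.05). The block lowered the SE of Syk from 0.0590 to 0.0354, of Fcgrt from 0.112 to 0.0587 and of Fcgr4 from 0.159 to 0.107. No label says what a shared number means. Same-numbered libraries correlated between -0.20 and 0.74, above 0.1 in 3 of 7 numbers, and 1 of 7 numbers correlated best with its own.

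Among the pathway lists 0 genes were called under every alternative, while 2 to 11 had an unadjusted p under 0.05, the most without KO replicate 1. The share of all genes under each alternative is not given here.

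Lengths moved the per-kb levels and ratios by construction. With the longest transcript, Fcgr3 was at 459, Fcgr2b at 40.9, Fcer1g at 745, Fcgrt at 38.3 and Syk at 33.7 CPM per kb. With the principal transcript they were at 459, 91.9, 755, 38.3 and 35.3 CPM per kb. The mean log2 activating over inhibitory ratio was 3.97 in WT and 3.95 in KO with the longest transcript, 2.80 and 2.78 with the principal transcript, 2.33 and 2.33 for Fcgr1 alone, 3.85 and 3.83 for Fcgr3 alone, and 0.87 and 0.84 for Fcgr4 alone. Leaving out 1 library gave 4.38 to 4.45 in WT, 4.36 to 4.43 in KO and -0.05 to 0.02 for KO minus WT. Each member had at least 1771 counts in every library.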
